A study of Mus musculus with 40 samples.

Results

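The miR-297, miR-466, miR-467 and miR-669 families of the mouse were examined in small RNA libraries of the hippocampal CA1 region. All mature miRNAs whose name begins with one of these 4 family names were taken, whatever letter or arm follows, which gave 80 of the 1978 mature miRNAs in the count table. Of these, 6 were named miR-297, 31 miR-466, 13 miR-467 and 30 miR-669. The rule used names alone and no measured value, but it was set with earlier results of these data known.

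Each of the 40 libraries came from 1 mouse on a C57Bl/6J background. CamKIIδC TG mice, which overexpress the δC form of calcium/calmodulin-dependent kinase II and are a model of heart failure, were set beside wild-type littermates (WT) at 3 and 6 months of age, and both sexes were used. By the sample titles there were 5 WT and 9 TG mice at 3 months and 15 WT and 11 TG mice at 6 months. The genotype field of WT mice 1 and 2 at 3 months named the transgene where their titles named wild type, and the titles were followed. Small RNA counts hold no reading of the transgene, so the genotype labels could not be checked, and the labels do not name the promoter that drives it.

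A miRNA is cut from a hairpin precursor, and either the 5p or the 3p strand of the hairpin can be loaded into the silencing complex. Bases 2 to 8 of the loaded strand, the seed, pair with the target mRNA. Many hairpins of these families lie together in an intron of Sfmbt2, an imprinted Polycomb gene, in a repeat-derived cluster that is known mainly from the placenta and from embryonic stem cells.

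In the GRCm38 annotation, 70 of the 82 precursors listed for the families lay in Sfmbt2 (chromosome 2, 10370510 to 10595253, plus strand). All 70 were intronic, 0 overlapped an exon, and together they spanned 51617 bases (10466663 to 10518279). Another 9 precursors lay outside Sfmbt2, and 3 were not matched to the annotation by name. In terms of mature miRNAs, 64 members had all of their precursors in Sfmbt2, 9 had all of them elsewhere and 7 were mixed or not matched.

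The mature sequences of 8 of the 80 members were held by the RefSeq table (GRCm38.p6), and they are shown because the alternating bases typical of the families can be read in them. Capitals mark the seed.
miR-466i-3p: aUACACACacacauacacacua
miR-466q: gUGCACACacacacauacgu
miR-467f: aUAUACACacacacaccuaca
miR-467g: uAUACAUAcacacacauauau
miR-466j: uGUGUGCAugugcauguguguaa
miR-466k: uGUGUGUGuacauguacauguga
miR-467h: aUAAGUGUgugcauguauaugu
miR-669n: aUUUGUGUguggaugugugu
The first 4 are rich in alternating C and A, and the last 4 in alternating U and G. A stretch of at least 9 bases in which 2 different bases alternate was present in 5 of these 8 sequences and in 12 of the 1679 mature miRNAs of the table (0.715%). The 8 seeds all differed. All 8 map outside Sfmbt2, for example miR-466i-3p at chromosome 13, 17747552 to 17747573 on the plus strand, and miR-466k at chromosome 3, 85467396 to 85467418 on the plus strand. They were rare in the hippocampus: miR-466i-3p had 298 reads over the 40 libraries, and the other 7 had between 3 and 52.

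The libraries held between 1926108 and 22892729 miRNA reads, so 3 reads corresponded to between 0.131 and 1.56 CPM, the count per 1000000 miRNA reads. The 3-month libraries were deeper, with a median of 18431486 reads in TG and 14340558 in WT, than the 6-month libraries, with 9239179 in TG and 9893109 in WT. The members with at least 1 read numbered 58 in the median TG library and 53 in the median WT library at 3 months, and 51 in both genotypes at 6 months.

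Similar sequences left their mark on the counts. Reads that match several mature miRNAs or precursors are listed on each of them, so 14 members fell into 6 sets whose counts were identical in all 40 libraries. These sets were miR-297a-3p, miR-297b-3p and miR-297c-3p (689 reads), miR-466b-3p, miR-466c-3p and miR-466p-3p (1224 reads), miR-466b-5p and miR-466o-5p (150 reads), miR-466d-5p and miR-466n-5p (61 reads), miR-669a-3p and miR-669o-3p (1635 reads), and miR-669a-5p and miR-669p-5p (1740 reads). The totals of miR-467a-5p and miR-467b-5p, 34797 and 34798 reads, differed by 1 read. Those of miR-467a-3p and miR-467d-3p, 1722 and 1721 reads, likewise differed by 1, and those of miR-466b-3p and miR-466e-3p, 1224 and 1234 reads, by 10. The members of such a set are 1 measurement under several names. In particular, miR-467a-5p has 10 precursors in the cluster and miR-467b-5p has 1 (Mir467b, chromosome 2, 10481248 to 10481320), and the reads cannot be assigned to one of these hairpins.

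**Figure D1:**
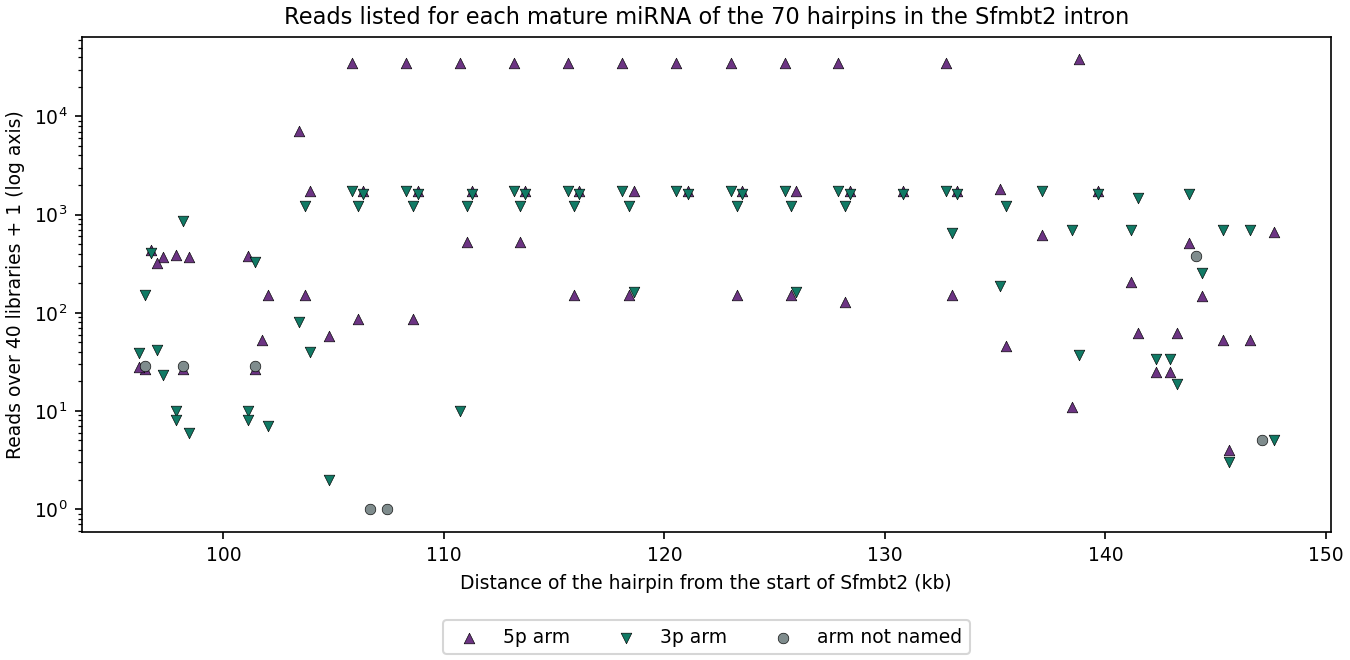
Reads over the 40 libraries, plus 1 on a log axis, against the distance of each hairpin from the start of Sfmbt2 in kilobases, for the 70 hairpins in its intron. Triangles pointing up are 5p arms, triangles pointing down 3p arms and circles members with no arm in the name. The row of 5p arms near the top is the same set of 34797 to 34798 miR-467a-5p and miR-467b-5p reads repeated on 11 hairpins, and the single 5p arm at its right is miR-669c-5p.

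Few members were abundant. Over the 40 libraries, 24 members reached a mean of 1 CPM and 4 reached 10 CPM, namely miR-669c-5p (75.0 CPM), miR-467b-5p and miR-467a-5p (72.4 CPM each) and miR-467c-5p (14.2 CPM). These 4 are 5p strands from the Sfmbt2 intron: miR-669c comes from Mir669c (chromosome 2, 10509296 to 10509404) and miR-467c from Mir467c (10473931 to 10474027). By mean level, miR-669c-5p ranked 219 and miR-467b-5p 223 among the 1978 miRNAs. The next member, miR-466i-5p, had a mean of 4.32 CPM and comes from chromosome 13 (17747473 to 17747593). The miR-297 family stayed near the limit of counting, with at most 1.11 CPM, which was the level of the set led by miR-297a-3p, and with 0.298 CPM for the next, miR-297b-5p. Another 2 members, miR-669g and miR-669j, had 0 reads in every library, which with a floor of 3 reads leaves room for up to 0.131 CPM in the deepest library and 1.56 CPM in the shallowest.

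The strand that predominated in the listed reads differed between hairpin names. Both strands were listed for 33 hairpin names, and 28 of these had at least 100 reads on one of them, with more 5p than 3p reads for 15 and fewer for 13. Shared reads count under each name, so these names are not separate observations. The 689 3p reads of miR-297 and the 1224 of miR-466b, miR-466c and miR-466p each count under 3 names. The 1721 3p reads of miR-467d are, but for 1 read, those of miR-467a, which had more 5p reads. The abundant hairpins were nearly pure 5p: 99.9% of miR-669c reads (38224 against 36), 98.9% of miR-467c reads (7169 against 80) and 95.3% of miR-467a reads (34797 against 1722). Most miR-466 hairpins showed the opposite, with 4.00% of miR-466d reads (61 against 1463) and 10.9% of miR-466b reads (150 against 1224) on the 5p strand. For miR-669a the listed reads were near equal, with 1740 on the 5p and 1635 on the 3p strand. These 5p reads are also those of miR-669p-5p, and the 3p reads those of miR-669o-3p. With the shared reads the 5p share was 23.8% for miR-669o and 91.4% for miR-669p. The balance of a single hairpin can therefore not be read from them.

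To learn which members differed between 3 and 6 months in TG mice, a negative binomial quasi-likelihood test was fitted to all miRNAs that passed a filter on low counts. The filter left 26 of the 80 members among 629 miRNAs. Members that passed it were not all members, and a miRNA called altered had a Benjamini-Hochberg adjusted p under 0.05 and a log2 fold change (log2FC) beyond 0.26 in size. With these settings 3 members were called, all higher at 6 months: miR-467a-5p, miR-467b-5p and miR-467c-5p. Over all miRNAs tested, 15.7% were called, against these 3 of 26 members, so the share of calls in the families was near that of all miRNAs. The 3 names are 2 measurements, because miR-467a-5p and miR-467b-5p share their reads.

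The level of miR-467b-5p in TG mice ran from 26.1 to 91.1 CPM at 3 months (median 43.8) and from 54.3 to 128.0 CPM at 6 months (median 85.3). All 11 TG mice at 6 months lay above the 3-month mean and 3 lay above the highest 3-month mouse, while 7 of 9 mice at 3 months lay below the lowest 6-month mouse. The groups therefore overlapped through the 2 highest 3-month mice. The mean rose from 49.0 ± 21.3 (SD, n = 9) to 85.9 ± 22.0 CPM (SD, n = 11), and the log2FC was 0.82 ± 0.22 (SE), with an adjusted p of 0.0135 in the edgeR quasi-likelihood test. With library totals alone as the scaling, which moved the median log2FC of all miRNAs from -0.09 to -0.29, miR-467b-5p had a log2FC of 0.54 and was no longer called (adjusted p = 0.157 by edgeR).

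The level of miR-467c-5p followed that of miR-467b-5p. In TG mice it ran from 6.13 to 17.5 CPM at 3 months (median 10.8) and from 11.3 to 23.7 CPM at 6 months (median 15.8), and all 11 mice at 6 months lay above the 3-month mean. The log2FC was 0.61 ± 0.20 (SE), with an edgeR adjusted p of 0.0425, and the call was lost in 13 of the 20 fits that each left out 1 mouse, with adjusted p up to 0.0906. It was kept without TG mice 6 or 8 at 3 months and without TG mice 4, 5, 6, 7 or 9 at 6 months. Over the 40 libraries the log2 levels of miR-467b-5p and miR-467c-5p had a Pearson r of 0.900, a description over libraries that share the same scaling.

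The most abundant member did not move with them. Levels of miR-669c-5p in TG mice ran from 54.0 to 154.0 CPM at 3 months (median 90.2) and from 40.6 to 117.1 CPM at 6 months (median 64.7). The 2 ranges overlapped broadly, and the log2FC of -0.27 ± 0.21 (SE) did not pass the test (adjusted p = 0.392 by edgeR). Its r with miR-467b-5p over the 40 libraries was -0.264.

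**Figure D2:**
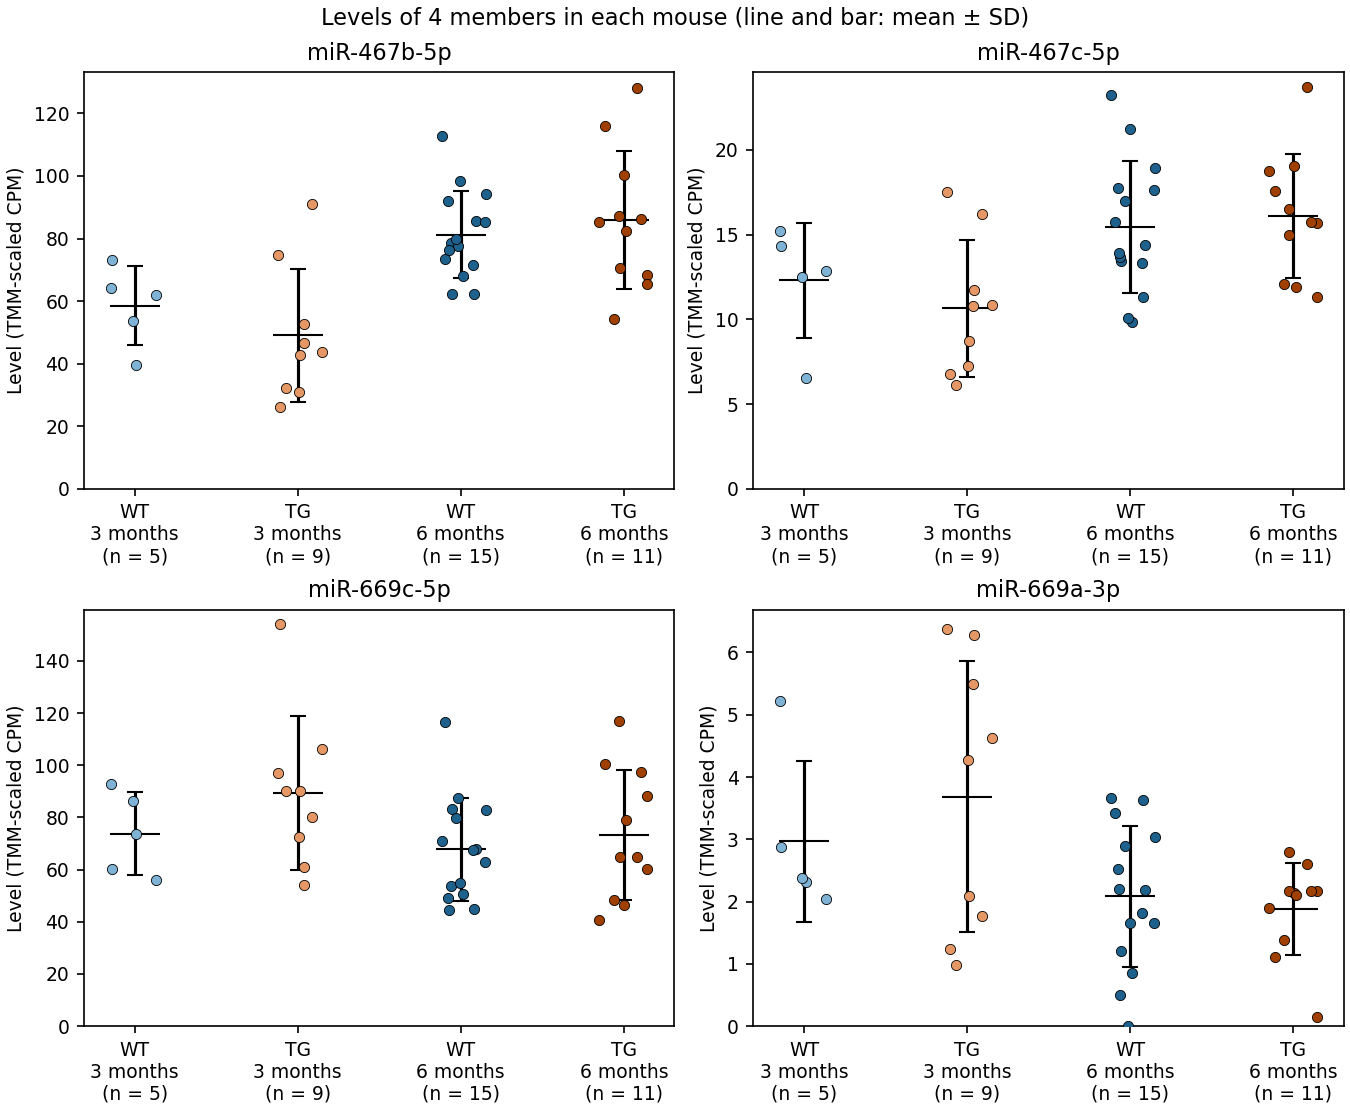
Levels of miR-467b-5p, miR-467c-5p, miR-669c-5p and miR-669a-3p in CPM scaled by TMM, 1 point a mouse in each of the 4 groups, with the mean and SD as line and bar. The 2 miR-467 strands sit higher at 6 than at 3 months in TG mice with overlapping groups, whereas miR-669c-5p and miR-669a-3p do not.

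The remaining tested members had log2FC from -0.99 to 0.58 and were not called. Of the 26 members, 22 (84.6%) had a log2FC below 0, against 56.9% of all 629 miRNAs, and the median was -0.44 for the members and -0.09 for all. The 4 members above 0 were the 5p strands of miR-467a, miR-467b, miR-467c and miR-467d. All 14 tested 3p strands were below 0 (median -0.59), many of them with shared reads, while 8 of 12 5p strands were below 0 (median -0.04). With RLE scaling and with library totals, 22 of 26 members again lay below 0, with medians of -0.51 and -0.73. With 1 factor of unwanted variation taken from the spike-in oligos as a covariate, 16 of 26 did, and the median was -0.03. The 26 names hold shared measurements. With identical members counted once, 15 of 19 lay below 0 (78.9%, median -0.38), against 56.4% of all 622 miRNAs. The 19 still hold nearly identical members as separate ones. These are miR-467a-5p with miR-467b-5p, 1 read apart, and miR-466b-3p with miR-466e-3p, 10 reads apart. With a filter at 10 CPM 1 of 4 members did, against 51.9% of all 362.

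By family, the 3 tested miR-297 members, which are 1 measurement, had a log2FC of -0.79 ± 0.39 (SE). The 8 tested miR-466 members ran from -0.50 to -0.04, with -0.23 for miR-466d-3p, -0.50 for miR-466b-3p and -0.04 for miR-466i-5p. Of 7 miR-467 members, 4 lay above 0 and 3 below, miR-467e-5p among the latter with -0.38. The 8 miR-669 members ran from -0.99 to -0.03. Adjusted p values of those named here were between 0.165 and 0.945 by edgeR.

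The lowest value belonged to miR-669a-3p, the set shared with miR-669o-3p. In TG mice it ran from 0.985 to 6.37 CPM at 3 months (median 4.27) and from 0.151 to 2.79 CPM at 6 months (median 2.14). All 11 mice at 6 months lay below the 3-month mean, and 5 of the 9 mice at 3 months lay above every 6-month mouse. The log2FC of -0.99 ± 0.36 (SE) missed the threshold (adjusted p = 0.0650 by edgeR), but passed it in DESeq2 (log2FC -1.05, adjusted p = 0.0270) and in edgeR without TG mouse 1, 2, 3 or 8 at 3 months. The level stood near the counting floor, with a median of 19 reads per library at 6 months, and over the 40 libraries its log2 level had an r of 0.608 with log2 depth, against -0.330 for miR-467b-5p and 0.012 for miR-669c-5p. The part of depth in the miR-669a-3p values was not tested.

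In WT mice, the same comparison of ages kept 31 members among 660 miRNAs and called 0, where 0.152% of all miRNAs were called. An unadjusted p under 0.05 was reached by 3 members, miR-467a-5p, miR-467b-5p and miR-669f-5p. DESeq2 also called 0 members, where 15 of all 660 miRNAs were called. With 1 or 2 RUVr factors, 5 of 31 members were called, where 191 and 213 of all 660 miRNAs were, miR-467a-5p and miR-467b-5p higher and miR-466d-3p, miR-466f-3p and miR-669f-5p lower at 6 months.

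The level of miR-467b-5p in the 5 WT mice at 3 months was 62.0, 64.2, 39.6, 53.7 and 73.1 CPM. At 6 months it ran from 62.2 to 112.6 CPM (median 78.6, n = 15). All 15 mice at 6 months lay above the 3-month mean and 11 lay above every 3-month mouse. The log2FC was 0.46 ± 0.17 (SE), with an unadjusted p of 0.0122 and an adjusted p of 0.278 by edgeR.

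For miR-467c-5p the WT mice at 3 months had 12.9, 15.2, 6.55, 12.5 and 14.3 CPM, and those at 6 months had between 9.84 and 23.2 CPM (median 14.4). The log2FC was 0.33 ± 0.22 (SE), with an edgeR adjusted p of 0.497. For miR-669c-5p the 3-month values were 56.2, 92.9, 73.7, 86.2 and 60.1 CPM, and the 6-month values ran from 44.4 to 116.4 CPM (median 67.7), with a log2FC of -0.13 ± 0.21 (SE). For miR-669a-3p they were 2.04, 5.22, 2.31, 2.39 and 2.89 CPM, against 0 to 3.67 CPM at 6 months (median 2.18), with a log2FC of -0.43 ± 0.34 (SE). Ages overlapped in WT mice for each of these 3 members, and none was called.

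The members as a group had a median log2FC of -0.12 in WT mice, against -0.02 for all miRNAs, and 23 of 31 (74.2%) lay below 0, against 51.8% of all. This did not hold with the spike-in factor, where 13 of 31 lay below 0 (41.9%, median 0.14), against 49.4% of all. Nor did it hold without WT mouse 2 at 3 months, one of the mice of unclear genotype, where 10 of 30 did (median 0.06). Without both mice of unclear genotype it held, with 21 of 32 below 0 (65.6%, median -0.10), against 47.7% of all. With identical members counted once, 19 of 24 lay below 0 (79.2%, median -0.13), and with a filter at 10 CPM 1 of 4 did. The 24 still hold miR-467a-3p with miR-467d-3p, and miR-466b-3p with miR-466e-3p, nearly identical, as separate members. The set of miR-297a-3p had 0.09 ± 0.40 (SE), miR-466d-3p -0.42 ± 0.28 (SE) and miR-467e-5p -0.10 ± 0.33 (SE).

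**Figure D3:**
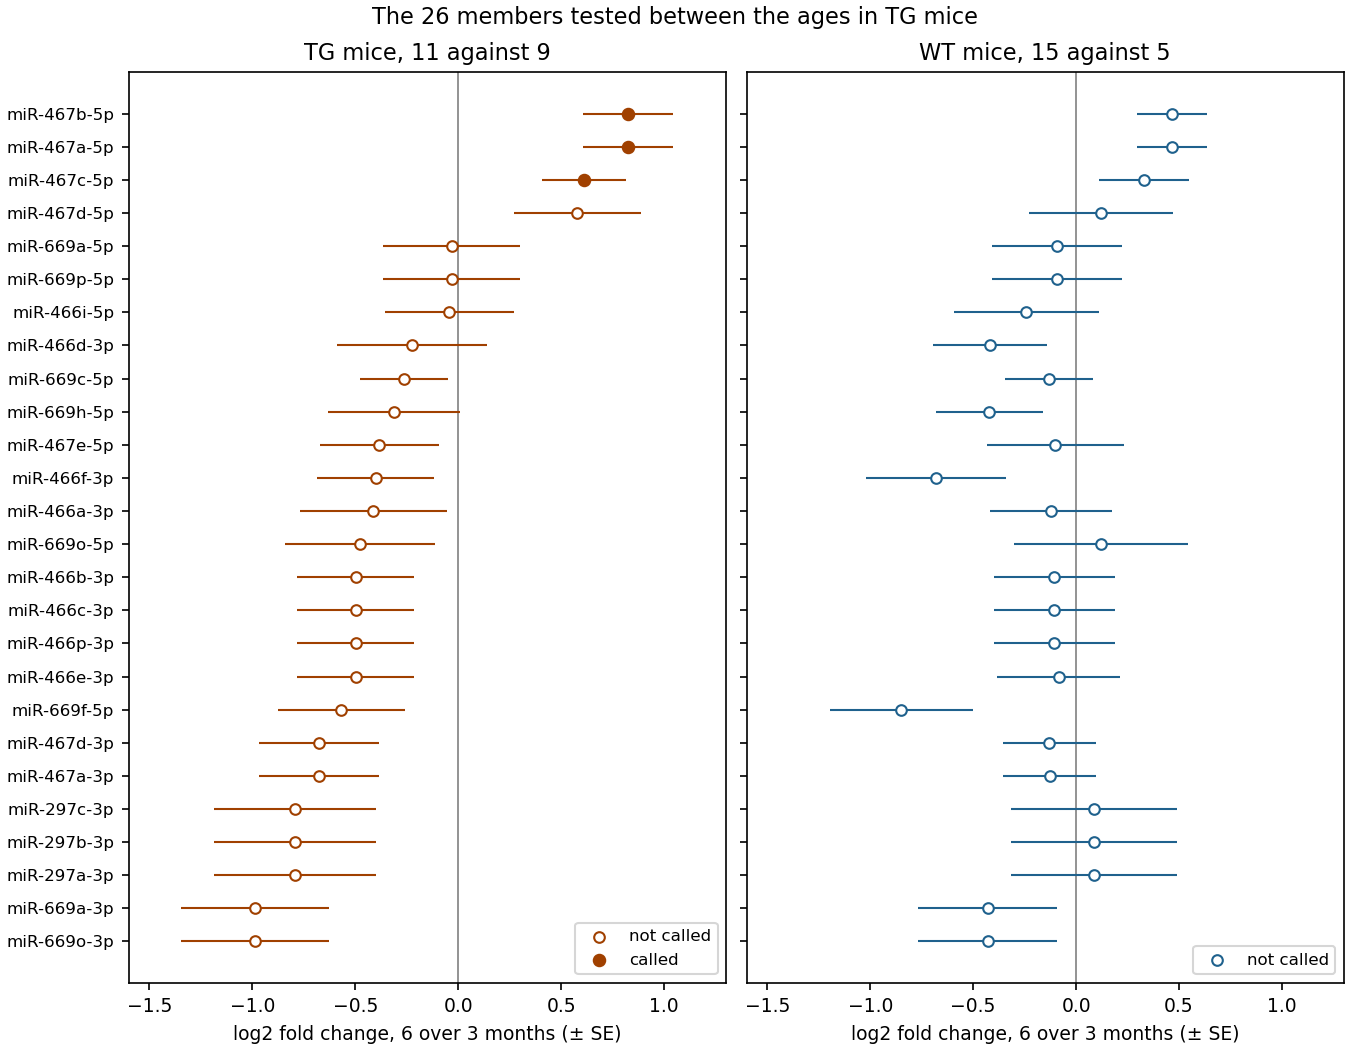
Log2 fold change between 6 and 3 months with its SE for the 26 members tested in TG mice, in TG mice at the left and in WT mice at the right. Filled points were called. The 5p strands of miR-467a, miR-467b, miR-467c and miR-467d lie above 0 in both panels, and calls were made in TG mice only for the first 3 of them.

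Whether the change with age differed between the genotypes was tested directly as an interaction of age and genotype. Of 35 members tested, 0 were called and 0 had an unadjusted p under 0.05 by edgeR, and 0 of 699 miRNAs were called (0%), with 0 members called by DESeq2. For miR-467b-5p the change in TG exceeded that in WT mice by 0.33 ± 0.27 (SE) on the log2 scale (adjusted p = 0.986 by edgeR). For miR-467c-5p the difference was 0.26 ± 0.29 (SE) and for miR-669a-3p -0.57 ± 0.51 (SE). The calls in TG mice alone thus do not show that the genotypes differed.

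Between the genotypes at one age, 0 members were called. At 3 months 36 members were tested, and 0 had an unadjusted p under 0.05 by edgeR, with 0 of 695 miRNAs called (0%) and 0 members by DESeq2. The log2FC of TG against WT at 3 months was -0.28 ± 0.30 (SE) for miR-467b-5p and 0.21 ± 0.23 (SE) for miR-669c-5p, and the median was 0.13 for the members and 0.04 for all miRNAs. That median had no stable sign: it was -0.02 without TG mouse 6, -0.0061 without WT mouse 1 and 0.36 without WT mouse 2. It was -0.29 with the replicate number as a block, a fit that kept only the 5 same-numbered mice of each genotype. At 6 months 26 members were tested, and 1, miR-466c-5p, had an unadjusted p under 0.05 (log2FC -0.72, adjusted p = 0.992 by edgeR). Again 0 of 612 miRNAs were called (0%), and DESeq2 called 0 members. There the log2FC was 0.06 ± 0.13 (SE) for miR-467b-5p and 0.10 ± 0.18 (SE) for miR-669c-5p. The comparisons share groups, so they are not independent of each other.

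Read ratios within a library do not depend on the scaling between libraries. After the levels had been seen, the log2 ratio of the 5p to the 3p strand was computed in every mouse for each hairpin with both strands tested in TG mice, namely miR-467a, miR-467d, miR-669a and miR-669o, and 1 further ratio set miR-467b-5p over miR-669c-5p. The 5 ratios were compared in 4 contrasts by two-sided permutation tests over mice, exact except at 6 months, and p values were adjusted over all 20. A ratio shows that 2 members changed unequally and not which of them did. The ratios of miR-467a and miR-467d share their 3p reads, as do those of miR-669a and miR-669o.

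In TG mice the log2 ratio of miR-467a-5p to miR-467a-3p ran from 2.87 to 4.82 at 3 months (median 3.74) and from 4.64 to 6.30 at 6 months (median 5.12). At 6 months 9 of 11 mice lay above every 3-month mouse. The mean rose from 3.74 ± 0.63 (SD, n = 9) to 5.31 ± 0.55 (SD, n = 11), a difference of 1.56 (exact permutation p = 3.57e-05, adjusted p = 0.000714). Among the libraries with at least 8000000 miRNA reads, 9 and 8 in number, the difference was 1.42 (exact permutation p = 0.000247), with at least 10 miR-467a-3p reads in each. In these mice miR-467a-5p was higher at 6 months, whereas miR-467a-3p, at 1.78 to 6.50 CPM at 3 months and 0.700 to 5.09 CPM at 6 months, had a log2FC of -0.68 ± 0.29 (SE) and was not called (adjusted p = 0.113 by edgeR). Over the 40 libraries the log2 level of miR-467a-3p had an r of 0.522 with log2 depth, against -0.330 for miR-467b-5p, and the 3-month libraries were the deeper ones.

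In WT mice the ratio was 4.80, 3.87, 3.67, 4.09 and 4.44 at 3 months and ran from 3.97 to 5.50 at 6 months (median 4.82). The mean rose from 4.17 ± 0.45 (SD, n = 5) to 4.79 ± 0.39 (SD, n = 15), by 0.62 (exact permutation p = 0.0116, adjusted p = 0.0464), and 14 of 15 mice at 6 months lay above the 3-month mean. At 6 months the ratio was higher in TG than in WT mice by 0.52 (permutation p = 0.0114, adjusted p = 0.0464), and 9 of 11 TG mice lay above the WT mean. The lowest miR-467a-3p count among these libraries was 1 read, and among those of at least 8000000 miRNA reads, 11 WT and 8 TG, the difference was 0.35 and did not pass (exact permutation p = 0.0713). At 3 months the difference between TG and WT mice was -0.43 and did not pass (exact permutation p = 0.2, adjusted p = 0.308). The difference between the genotypes' changes with age was not tested for this ratio.

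The other ratios gave a mixed picture. In TG mice miR-467d-5p over miR-467d-3p rose by 1.53 from 3 to 6 months (exact permutation p = 0.00171, adjusted p = 0.0114), at a lowest count of 1 read for either strand. Its difference in WT mice was 0.17 (exact permutation p = 0.626). For miR-669a the difference in TG mice was 0.83 (exact permutation p = 0.138), and for miR-669o 0.48 (exact permutation p = 0.160), with adjusted p = 0.308 for both. Without the 6-month TG libraries of under 8000000 reads, the miR-669a difference was 1.27 (exact permutation p = 0.00732), and without TG mouse 9 at 6 months alone it was 1.17 (exact permutation p = 0.0042). Without TG mouse 2 at 3 months the miR-669o difference was 0.67 (exact permutation p = 0.0307).

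The 2 most abundant measurements of the cluster also changed unequally. In TG mice the log2 ratio of miR-467b-5p to miR-669c-5p ran from -2.56 to 0.19 at 3 months and from -0.42 to 1.11 at 6 months, with at least 113 reads of either in each library. The mean rose from -0.91 ± 0.85 (SD, n = 9) to 0.26 ± 0.55 (SD, n = 11), by 1.18 (exact permutation p = 0.0013, adjusted p = 0.0114), and all 11 mice at 6 months lay above the 3-month mean. In WT mice the ratio at 3 months was 0.14, -0.53, -0.90, -0.68 and 0.28, and it was higher by 0.63 at 6 months (exact permutation p = 0.025), which did not pass the adjustment (adjusted p = 0.0833). At 6 months the genotypes differed by -0.03 (permutation p = 0.871).

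**Figure D4:**
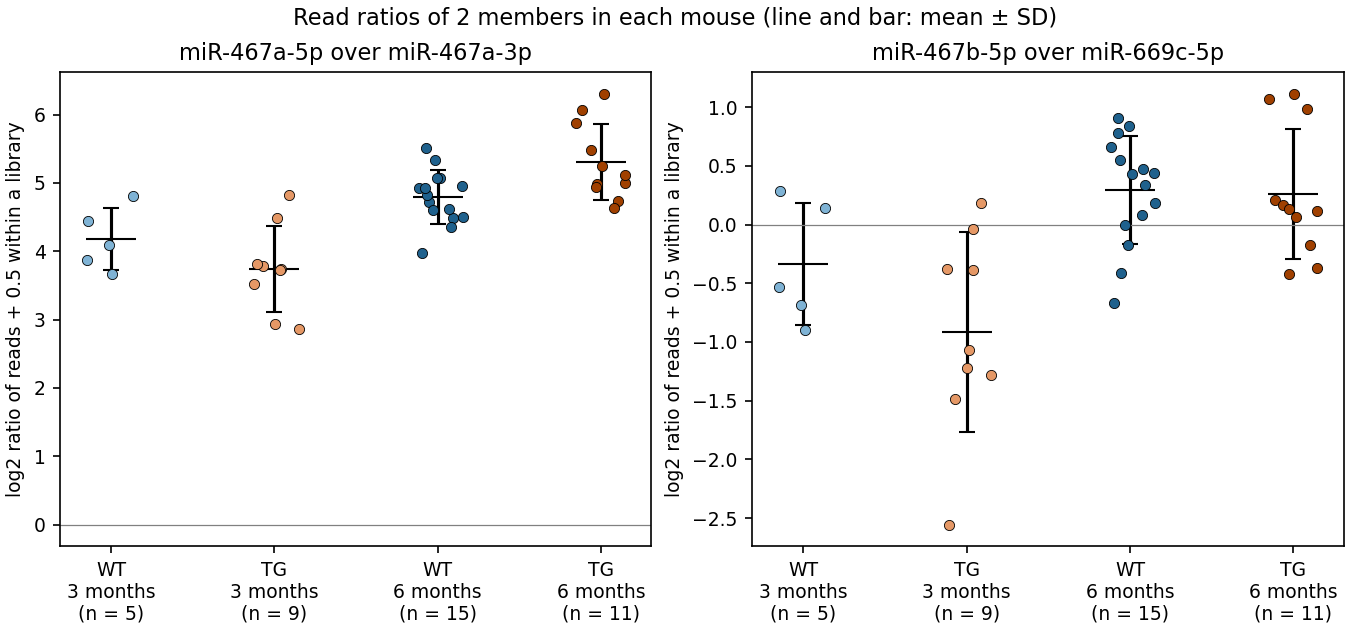
Log2 ratio of reads within a library, with 0.5 added to each count, for miR-467a-5p over miR-467a-3p and for miR-467b-5p over miR-669c-5p, 1 point a mouse in each of the 4 groups, with the mean and SD as line and bar. In TG mice 9 of 11 values of the first ratio and 4 of 11 of the second lay at 6 months above every 3-month value.

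The non-member miRNAs whose log2 levels were most like those of miR-669c-5p over the 40 libraries, among 357 with a mean of at least 10 CPM, were miR-672-5p (r = 0.630), miR-1224-5p (0.617), miR-3099-3p (0.599), miR-122-5p (0.587) and miR-342-5p (0.584). Pairs of members from the intron varied in r. It was 0.030 for miR-669c-5p with miR-669a-3p and 0.028 for miR-467a-5p with miR-467a-3p. For miR-467b-5p with miR-669a-3p it was -0.069, and for miR-669a-5p with miR-669a-3p 0.218. It was 0.659 for miR-466d-3p with miR-669a-3p, 0.578 for miR-467a-3p with miR-669a-3p and 0.546 for miR-467b-5p with miR-467d-5p. The log2 levels of miR-669a-3p and miR-467a-3p had an r of 0.608 and 0.522 with log2 depth. All these values share depth and scaling and are a description.

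In bulk tissue, fewer cells of a type and less RNA per cell cannot be told apart, so miRNAs known as markers of cell types were read in the same fits. Of 5 neuronal miRNAs 1 was called between the ages in TG mice, miR-128-3p (higher), and the summed level ran from 166500 to 318700 CPM at 3 months and from 198600 to 364500 at 6 months. That sum was mostly miR-128-3p (82790 to 282500 CPM) and miR-9-5p (52080 to 93930 CPM). The uncalled neuronal miRNAs went both ways, with log2FC of -0.66 for miR-124-3p, -0.17 for miR-9-5p, 0.12 for miR-138-5p and 0.32 for miR-132-3p. Of 3 oligodendrocyte miRNAs 2 were called, miR-219a-2-3p and miR-338-3p (lower, sum 1193 to 2307 against 743 to 1356 CPM). Of 5 choroid plexus and epithelial miRNAs 2 were called, miR-204-5p and miR-211-5p (higher, sum 431 to 1049 against 794 to 1205 CPM). That sum was mostly miR-204-5p (278 to 968 CPM). The uncalled ones had log2FC of -0.36 (miR-200a-3p), -0.07 (miR-200b-3p) and 0.19 (miR-448-3p). Of 3 vessel miRNAs 1 was called, miR-126a-3p (higher, sum 9351 to 16830 against 13070 to 20950 CPM). The uncalled miR-143-3p and miR-145a-5p had log2FC of 0.28 and 0.03. Of 4 erythroid ones miR-451a was higher and miR-144-3p, near the counting floor at 0 to 6.47 CPM, lower (sum 672 to 2605 against 970 to 2071 CPM). That sum was mostly the uncalled miR-486a-5p and miR-486b-5p, with log2FC of -0.02 and -0.03. Of 4 heart and skeletal muscle miRNAs 1 was called, miR-1a-3p (lower, sum 622 to 1693 against 387 to 892 CPM). The uncalled miR-133a-3p and miR-206-3p had log2FC of -1.14 and -0.49, and miR-208a-3p, which defines heart muscle, had 1 read over all 40 libraries. Of 4 microglial and leukocyte miRNAs 0 were called by edgeR (sum 230 to 354 against 257 to 666 CPM). These calls in TG mice stand beside 15.7% of all miRNAs called there. In WT mice 0 of these miRNAs were called between the ages, where 0.152% of all miRNAs were. The log2FC in WT and in TG mice was alike for miR-451a (0.63 and 0.68) and unlike for miR-338-3p (-0.26 and -1.02). The interaction called 0 of 699 miRNAs, so the missing calls in WT mice do not show that the genotypes differed. The part of these differences in the values of miR-467a-5p, miR-467b-5p and miR-467c-5p was not tested.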

How the data were processed

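Small RNA was sequenced from the CA1 region of 40 mice. The authors trimmed adapters, aligned reads to mm10 with mirdeep2 and deposited raw read counts per pair of mature miRNA and miRBase precursor, which were used as deposited. Their library-scaled values were not used. Where a mature miRNA was listed on several precursors, the one with most reads was kept, and 52 spike-in entries were left out of the tests. Each comparison was fitted over all miRNAs with edgeR 4.0.16 in R 4.3.3 (filterByExpr, TMM scaling, robust quasi-likelihood F test), after a test on simulated counts. Groups followed the sample titles. Levels are TMM-scaled CPM, and log2 levels in correlations add a prior count of 2. Ratios add 0.5 to each count, and the test at 6 months drew 100000 permutations (numpy 2.4.6, scipy 1.17.1). DESeq2 1.42.0 was an alternative.

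Text names every member called in a comparison, the 4 most abundant of each family, the 3 highest and 3 lowest log2FC in TG mice among members with at least 10 CPM, and the first by name of each identical set. Further members named were chosen after their values were seen, as were the ratios. The members and lists were chosen with earlier results of these data known. Loci came from the GENCODE annotation of GRCm38. Counting intervals and floors cover counting error only. Every pair of libraries within a group differed by more than sampling noise. P values measure the spread between mice.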

Additional observations from a re-analysis of the deposited data

Results flagged for a closer look

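In the 2 groups small enough for a test of outlying mice, 36 combinations of a named member and a group were examined, and 2 held a mouse far from the others, where chance flags about 1 in 20. WT mouse 2 at 3 months had 5.22 CPM of miR-669a-3p, against 2.04 to 2.89 CPM in the other 4 mice. This is one of the 2 mice whose genotype field differed from its title. TG mouse 2 at 3 months had 0.438 CPM of miR-466d-5p, against 0 to 0.170 CPM in the others, a level near the counting floor.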

How the results depend on the processing

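Between the ages in TG mice, the count of 3 called members became 5 of 26 with DESeq2 (3 higher, 2 lower). Over all 629 miRNAs the count rose as well, from 99 to 142. The members called were 14 with 1 RUVr factor (3 higher, 11 lower) and 15 with 2 RUVr factors (4 higher, 11 lower). With library totals alone the 3 calls were lost, and miR-467b-5p kept a log2FC above 0. There 2 other members were called (0 higher, 2 lower), and 108 of all 629 miRNAs. The 2 mice of unclear genotype counted as TG gave 4 calls (2 higher, 2 lower). With no filter on low counts 0 members and 70 of all 1621 miRNAs were called. There 20 of 77 members had an unadjusted p under 0.05, and miR-467b-5p had an edgeR adjusted p of 0.0503. With RUVr factors 305 and 321 of 629 miRNAs were called. Leaving out 1 mouse gave 2 to 5 member calls and 72 to 131 calls over all miRNAs. The 5 and the 131 both came without TG mouse 8 at 3 months. Both miR-467a-5p and miR-467b-5p stayed called in all 20 of these fits, with log2FC from 0.73 to 0.98. The call of miR-467c-5p was also lost with RLE scaling, library totals, no filter, the replicate block, the deeper libraries and the 2 mice of unclear genotype counted as TG, with log2FC above 0 in each. Between the ages in WT mice, the 0 calls became 5 with 1 or 2 RUVr factors and stayed 0 with each mouse left out. The genotype comparisons and the interaction kept 0 calls under each alternative run, for the interaction with each of the 5 WT mice at 3 months left out. Libraries of at least 8000000 reads, a limit chosen after seeing the data, gave 3 calls among 30 members in TG mice. These were miR-467a-5p and miR-467b-5p (higher) and miR-466g (lower), where 61 of all 644 miRNAs were called. The causes of these differences were not tested.

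Replicate numbers were not taken to pair the mice, because in no comparison did every same-numbered pair have deviations correlated at over 0.1: 7 of 9 pairs did between the ages in TG mice (mean r 0.273) and 2 of 5 in WT mice (0.0597), and 2 of 5 did between the genotypes at 3 months (0.00821) and 9 of 11 at 6 months (0.409). What same-numbered mice had in common in the comparisons where most pairs did was not tested. The fit with the replicate block kept only same-numbered mice, 9 of each age in TG and 5 of each age in WT mice. It therefore differs from the reported fit in its mice as well as in the block. With the replicate block, 2 of 26 members and 121 of 629 miRNAs were called in TG mice. In WT mice 3 of 24 members (miR-466f-3p, miR-669a-3p and miR-669o-3p, lower) and 245 of 597 miRNAs were called. Among members not called in the comparison as reported, the sign of the log2FC turned as follows. With the spike-in factor it was 0.31 for miR-466d-3p, 0.055 for miR-467e-5p and 0.47 for miR-669a-5p in TG mice, and 0.16 for miR-466b-3p, 0.18 for miR-466e-3p, 0.24 for miR-467e-5p and 0.15 for miR-669a-5p in WT mice. For miR-669a-5p in TG mice it was 0.060 and 0.18 with 1 and 2 RUVr factors, 0.019 with the block and 0.059 in the deeper libraries. For miR-297a-3p in WT mice it was -0.0006 with 1 RUVr factor, -0.059 with library totals and -0.19 with the block. Without the 2 mice of unclear genotype it was -0.0345 for miR-297a-3p, 0.15 for miR-467e-5p and 0.091 for miR-669a-5p in WT mice, and with them as TG the WT values were the same and miR-466i-5p in TG mice had 0.015. Leaving out 1 mouse turned the sign within ranges of -0.22 to 0.064 for miR-466i-5p and -0.16 to 0.12 for miR-669a-5p in TG mice, and of -0.13 to 0.37 for miR-297a-3p, -0.31 to 0.054 for miR-466b-3p, -0.29 to 0.075 for miR-466e-3p, -0.24 to 0.26 for miR-467e-5p and -0.22 to 0.13 for miR-669a-5p in WT mice. For the ratio of miR-467d-5p to miR-467d-3p in WT mice the range was -0.073 to 0.52. Between the genotypes, the ratio of miR-669a-5p to miR-669a-3p at 6 months was 0.56 in the deeper libraries, and the ranges were -0.40 to 0.21 for it, -0.46 to 0.023 for miR-669o-5p to miR-669o-3p and -0.12 to 0.035 for miR-467b-5p to miR-669c-5p at 6 months, and -0.18 to 0.15 for miR-669o-5p to miR-669o-3p at 3 months. At the depth of these libraries, most members fell below the filter on low counts and were not tested.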
